A study of Mus musculus with 16 samples.

Results

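DNA replication genes were followed in myoblasts, the dividing muscle cells that descend from satellite cells, cultured with or without the myofiber they came from. The 40 members were chosen by the known function of their products and found by their gene names on the array. That rule uses no signal, but the list was drawn up with earlier results of these data known. They are 40 of the 34836 gene names on the array, and all 40 were among the 20317 genes tested. Every sample came from male C57Bl/6J mice aged 11 to 13 weeks, with no genetic change or added agent. Dispersed myoblasts grew on dishes away from the myofiber, whereas myofiber-associated myoblasts grew on explanted single myofibers and were stripped off with trypsin for RNA. Each culture was sampled at 48 and 72 hr after isolation, with 4 arrays per group and 16 arrays in all. Each myofiber-associated preparation used 2 mice and each dispersed preparation 1 mouse. For 1 of the myofiber-associated 48-hr arrays, labelled 10+11, 2 preparations were pooled. All myofiber-associated arrays were on slide 1 and scan session 1 and all dispersed arrays on slide 2 and scan session 2, so that culture, slide and scan session cannot be told apart.

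A cell copies its genome once per division. Origins are first licensed by the origin recognition complex, Cdc6 and Cdt1, which load the MCM helicase onto DNA, and the helicase is then switched on together with the GINS complex. Primase and the replicative polymerases synthesize the new strands, held on DNA by the clamp PCNA and its loader RFC, while ribonucleotide reductase and thymidylate enzymes supply the nucleotides. Many of these genes are transcribed toward S phase under E2F factors, and their transcripts decline as myoblasts leave the cell cycle to differentiate.

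Promoter windows from RefSeq (GRCm38.p6, 250 bases before to 50 bases after the annotated start) were at hand for 33 of the 40 members. Mcm4, Gins1, Gins2, Gins4, Prim2, Pole and Rfc2 had no entry. The letters searched for E2F sites were TTTCCCGC, TTTGGCGC, TTTCGCGC and TTTGCCGC, on both strands, with overlapping matches counted once. At least 1 such match lay in a window of 13 of the 33 members (39.4%), against 2.60% of all 27025 gene symbols with a window. Here and below a member or symbol counted if any of its windows held a match, and 5 members had more than 1 window. The 13 members were Mcm3, Mcm5, Mcm6, Mcm7, Cdc6, Cdt1, Gins3, Pola1, Pold1, Pole2, Rfc3, Lig1 and Uhrf1. The MCM helicase had matches in 4 of its 5 genes with a window, and none of the 5 nucleotide supply genes had one. The letters CCAAT, on both strands, were in 20 of the 33 members (60.6%) and in 41.1% of all symbols. The letters TTTGAA, searched as a CHR element of the kind found in G2/M promoters, were in 4 of the 33 members (12.1%) and in 20.2% of all symbols. A match is a run of letters and not a measured binding site. Mcm3, Mcm6, Mcm7 and Rfc3 each had 2 separate E2F matches, the most of any member. The windows of the 3 MCM genes are shown, 5′ to 3′ along the gene, as examples of windows with 2 matches, and capitals mark the E2F letters. They are the first 3 of these 4 genes in alphabetical order, an order settled on after the matches had been seen.
Mcm3 (chr1:20820263-20820562, minus strand): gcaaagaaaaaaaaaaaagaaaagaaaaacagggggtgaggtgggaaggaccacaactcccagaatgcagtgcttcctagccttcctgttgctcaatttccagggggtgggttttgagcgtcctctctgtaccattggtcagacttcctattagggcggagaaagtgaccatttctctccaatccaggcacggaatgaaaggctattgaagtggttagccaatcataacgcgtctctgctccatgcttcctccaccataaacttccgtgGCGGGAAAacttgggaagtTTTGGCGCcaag
Mcm6 (chr1:128359656-128359955, minus strand): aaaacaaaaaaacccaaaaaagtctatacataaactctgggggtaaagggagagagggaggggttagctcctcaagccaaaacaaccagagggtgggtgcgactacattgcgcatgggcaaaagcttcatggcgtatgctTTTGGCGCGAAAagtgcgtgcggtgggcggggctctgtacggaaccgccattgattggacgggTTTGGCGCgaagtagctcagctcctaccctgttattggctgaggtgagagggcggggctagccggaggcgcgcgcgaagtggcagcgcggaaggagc
Mcm7 (chr5:138171834-138172133, minus strand): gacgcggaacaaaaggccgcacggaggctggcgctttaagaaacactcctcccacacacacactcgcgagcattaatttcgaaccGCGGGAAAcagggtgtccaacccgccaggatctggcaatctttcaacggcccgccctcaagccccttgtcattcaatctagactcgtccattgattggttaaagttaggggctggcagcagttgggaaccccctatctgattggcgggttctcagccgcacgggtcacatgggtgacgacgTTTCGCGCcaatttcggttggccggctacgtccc

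**Figure D1:**
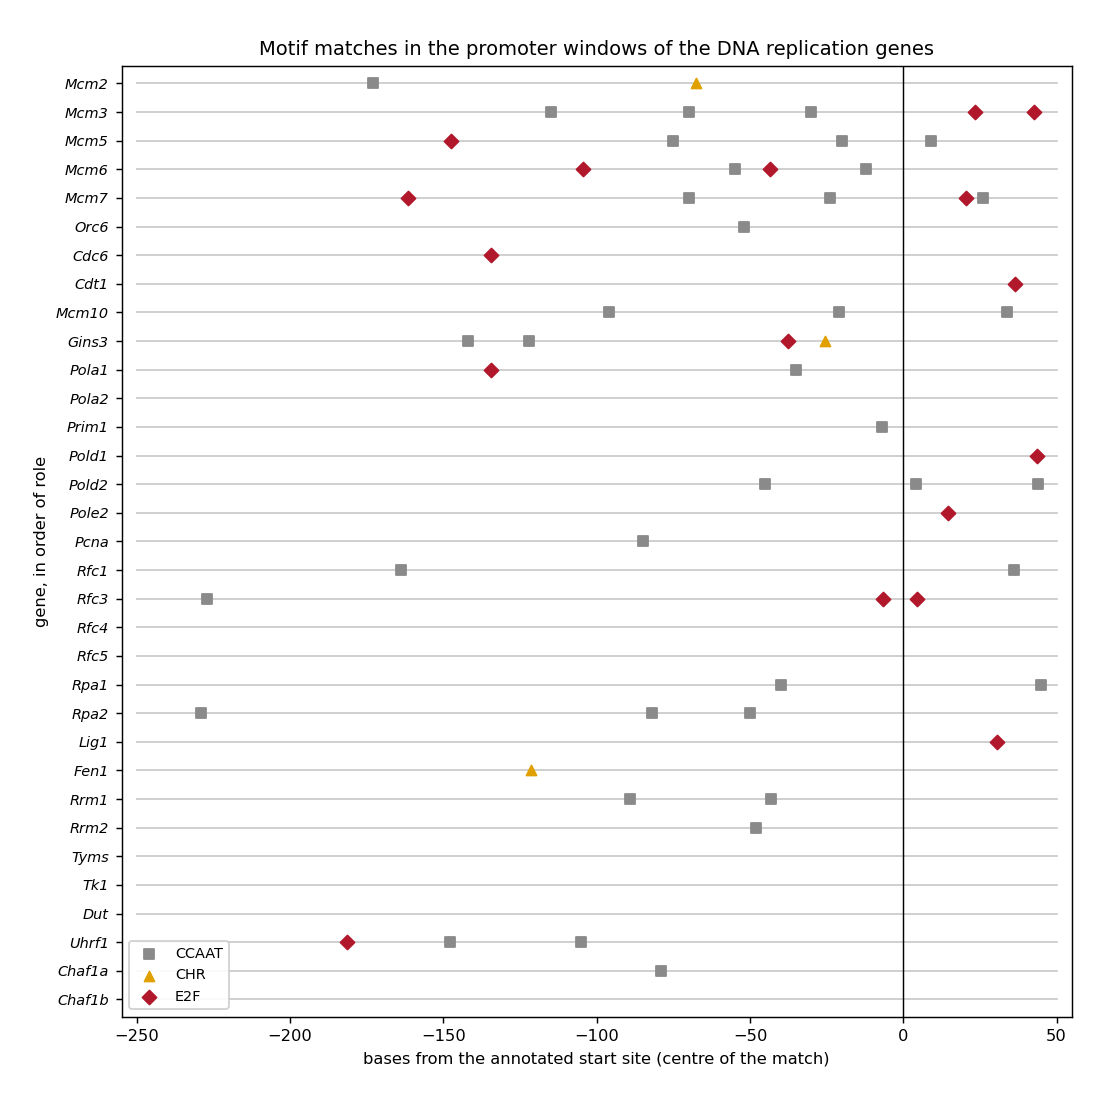
Position of motif matches in the promoter windows of the 33 members with an entry, with bases from the annotated start site on the x axis and genes in order of role on the y axis. Diamonds mark E2F letters, squares CCAAT and triangles CHR letters. E2F matches are seen in 13 genes, 4 of them MCM genes, and the nucleotide supply genes Rrm1, Rrm2, Tyms, Tk1 and Dut have none.

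The array reads each gene with probes of 60 bases. The 40 members had 53 probes, and the brightest one stood for its gene. Gins2, Pola2 and Pole2 were the members called lower in myofiber-associated myoblasts at both time points, so the probes behind those results are given, with mm9 coordinates from the array files. The Pole2 probe spans 1400 bases of the genome, so its 60 bases are not contiguous there, while those of the other two are.
Gins2 (chr8:123112627-123112686, minus strand): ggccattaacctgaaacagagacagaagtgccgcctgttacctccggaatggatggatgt
Pola2 (chr19:5946484-5946543, minus strand): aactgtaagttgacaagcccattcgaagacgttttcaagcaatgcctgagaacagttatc
Pole2 (chr12:70307465-70308864, minus strand): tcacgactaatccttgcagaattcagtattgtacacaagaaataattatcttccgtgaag

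All 40 members were well above background on all 16 arrays, and no spot was saturated. Pearson's r between arrays of a group was 0.980 to 0.998 over the genes tested. Between replicates, the median SD of a member on the log2 scale was 0.070 at 48 hr and 0.065 at 72 hr for dispersed arrays, and 0.262 and 0.133 for myofiber-associated arrays. All 10 myoblast markers, Pax7, Myf5 and Myod1 among them, were well above background on every array. The 12 adult muscle fiber markers were also above background on every array, and their summed signal was 1701200 to 2197390 in myofiber-associated myoblasts at 48 hr, 377163 to 1627780 at 72 hr and 12117 to 59156 in dispersed myoblasts. In bulk RNA, fewer cells of a type and less RNA per cell cannot be told apart.

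The members moved together from array to array. As the average deviation of the 40 genes from their own 16-array means, dispersed arrays stood at 0.19, 0.09, 0.13 and 0.14 at 48 hr and at 0.15, 0.06, 0.09 and 0.13 at 72 hr (log2 scale). Myofiber-associated arrays stood at -0.37, -0.09, -0.51 and -0.002 at 48 hr (replicates 7, 8, 9 and the pool) and at 0.09, -0.02, 0.09 and -0.17 at 72 hr. Every dispersed 48-hr array lay above every myofiber-associated 48-hr array, and at 72 hr the cultures overlapped. On replicates 7 and 9 of the myofiber-associated 48-hr group only 2 of the 40 members were above their 16-array mean, compared with 10 on replicate 8 and 25 on the pooled array.

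**Figure D2:**
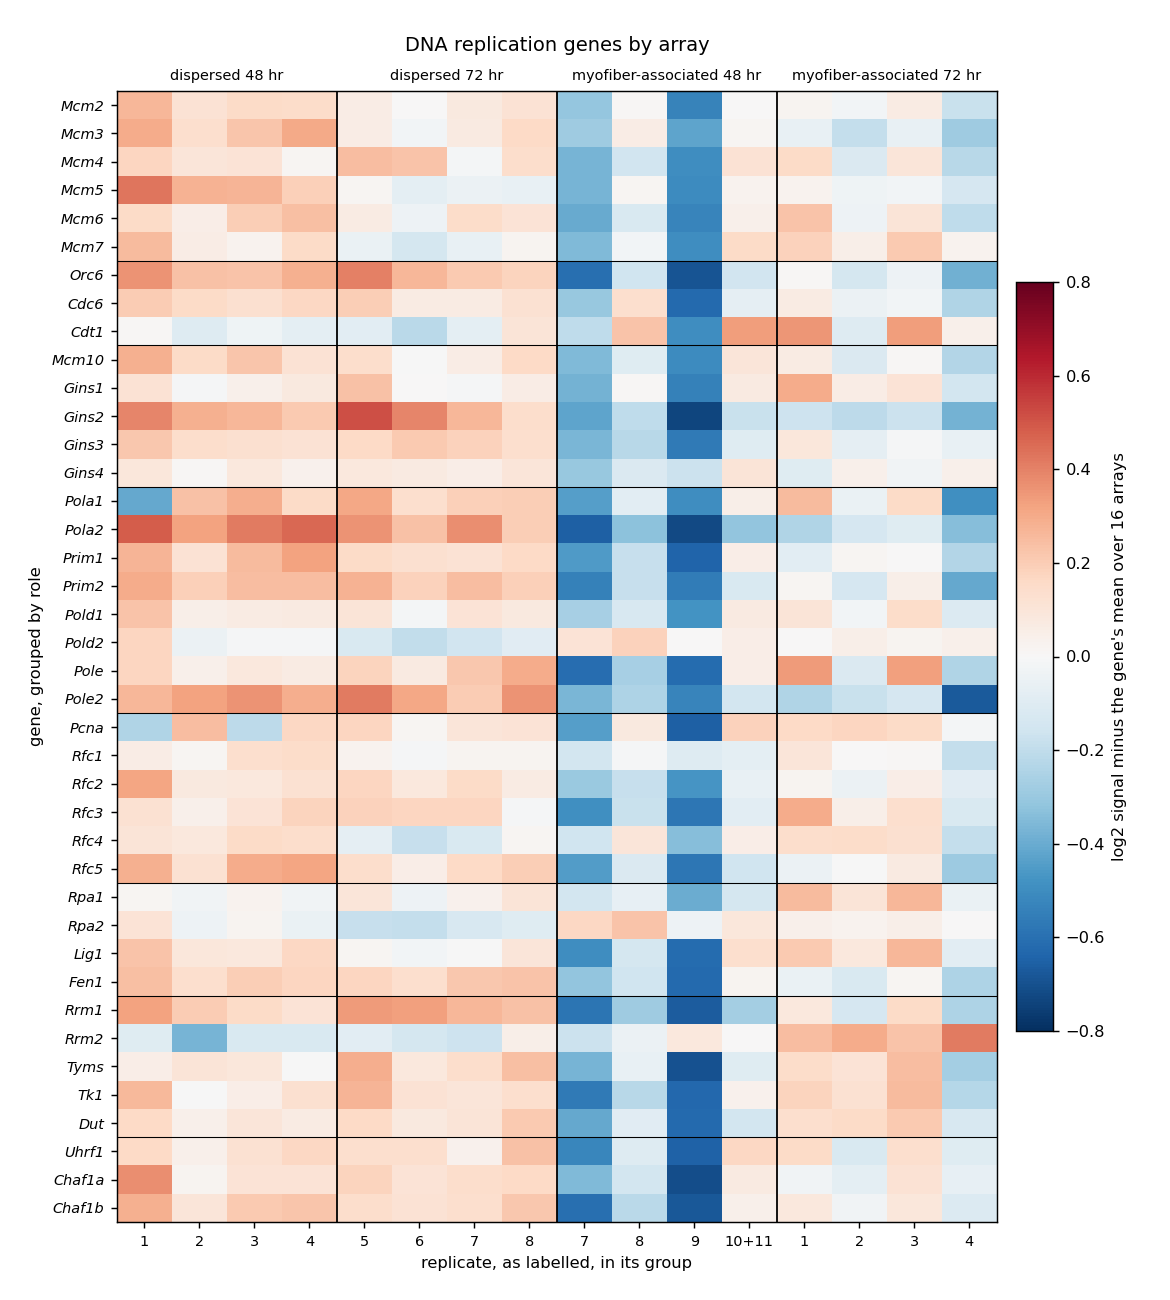
Log2 signal of each of the 40 members (rows, grouped by role) on each of the 16 arrays (columns, grouped by culture and time), minus the gene's mean over all arrays, red above and blue below. Replicates 7 and 9 of the myofiber-associated 48-hr group are low across nearly all rows, and Rrm2, Pold2 and Rpa2 depart from that pattern on the myofiber-associated arrays.

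After each gene's group means were taken away, the mean pairwise Pearson correlation of the members was 0.684 over the 16 arrays, against 0.015 for all genes tested. It was 0.745 over the 8 myofiber-associated arrays and 0.310 over the 8 dispersed arrays, and the arrays share their normalization. For the 30 mitosis and G2/M genes the same mean was 0.868 and 0.447. Set against the average of the other members over the 16 arrays, the deviations of Lig1, the ligase that seals Okazaki fragments, had a correlation of 0.97, and those of Mcm10 and Mcm2 had 0.96 each. Pold2, the accessory subunit of polymerase delta, stood at 0.33, Gins4 at 0.49 and Rpa2 at 0.52. Rrm2, the small subunit of ribonucleotide reductase, stood at -0.14. Within the myofiber-associated arrays Rrm2 was at -0.37 and Pold2 at 0.34, whereas within the dispersed arrays they were at 0.69 and 0.84. These correlations are descriptions of 16 arrays and carry no test.

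Within the myofiber-associated groups, markers of the myofiber moved opposite to the members. The average deviation of the 12 adult muscle fiber markers was 3.79, 3.37, 4.05 and 3.19 on the myofiber-associated 48-hr arrays and 0.41, 1.63, 0.31 and 2.20 on the 72-hr arrays, in the replicate order used above. Within each of these groups, the array with the higher fiber marker average had the lower average of the replication genes, without exception. The dispersed arrays did not keep to that order. Their 48-hr replicate 1 had the highest fiber marker average of its group, -1.22, and the highest average of the members, 0.19. The part of the fiber RNA in the members' signal was not tested. Endothelial markers averaged 2.02 in dispersed myoblasts at 48 hr, 0.57 at 72 hr, -0.35 in myofiber-associated myoblasts at 48 hr and -2.24 at 72 hr, and their part was not tested either. The 10 myoblast markers averaged -0.31 and -0.06 in dispersed and -0.19 and 0.55 in myofiber-associated myoblasts at 48 and 72 hr, higher at the later time in both cultures. In each culture 8 markers were above 0 over time and 2 below, the lowest being Sdc4 (-0.30, dispersed) and Des (-0.95, myofiber-associated). Between the cultures at 48 hr 7 were lower in myofiber-associated myoblasts, with a median of -0.35, while Des was 4.05 higher. The 10 markers of differentiating muscle cells on the array averaged -2.56 and -1.89 in dispersed and 2.20 and 2.25 in myofiber-associated myoblasts at the same times. The near-equal myofiber-associated averages hide changes in both directions. There 7 of the 10 markers were below 0 from 48 to 72 hr, with a median of -1.08 and Ckm at -2.06. Myh3, above background on no myofiber-associated 48-hr array, rose by 6.73. In dispersed myoblasts 7 were above 0 and 3 below, with a median of 0.61. Between the cultures at 48 hr 8 of these 10 markers were higher in myofiber-associated myoblasts, with a median of 5.98. The other 2 were lower, Myh3 the most at -3.46. All 12 adult muscle fiber markers were higher there, with a median of 5.77. The part of fiber RNA in the markers of differentiating muscle cells was not tested. Averages of leukocyte, mast cell, fibroblast, pericyte and smooth muscle markers were lower at 72 than at 48 hr in both cultures. Some markers in these lists went the other way. Over time 7 of the 10 leukocyte markers were below 0 in dispersed and 8 in myofiber-associated myoblasts, while Laptm5 rose by 0.90 and 2.55. Of the fibroblast markers 8 of 10, and of the pericyte and smooth muscle markers 6 of 8, were below 0 in each culture. Cnn1 rose by 1.90 in dispersed and Acta2 by 1.03 in myofiber-associated myoblasts. Schwann cell markers averaged 1.43 and 0.57 in dispersed and -1.01 and -0.99 in myofiber-associated myoblasts. In the latter 4 of the 6 were below 0 over time, and Ngfr rose by 2.57. None of these lists was tested as a part of the members' signal.

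**Figure D3:**
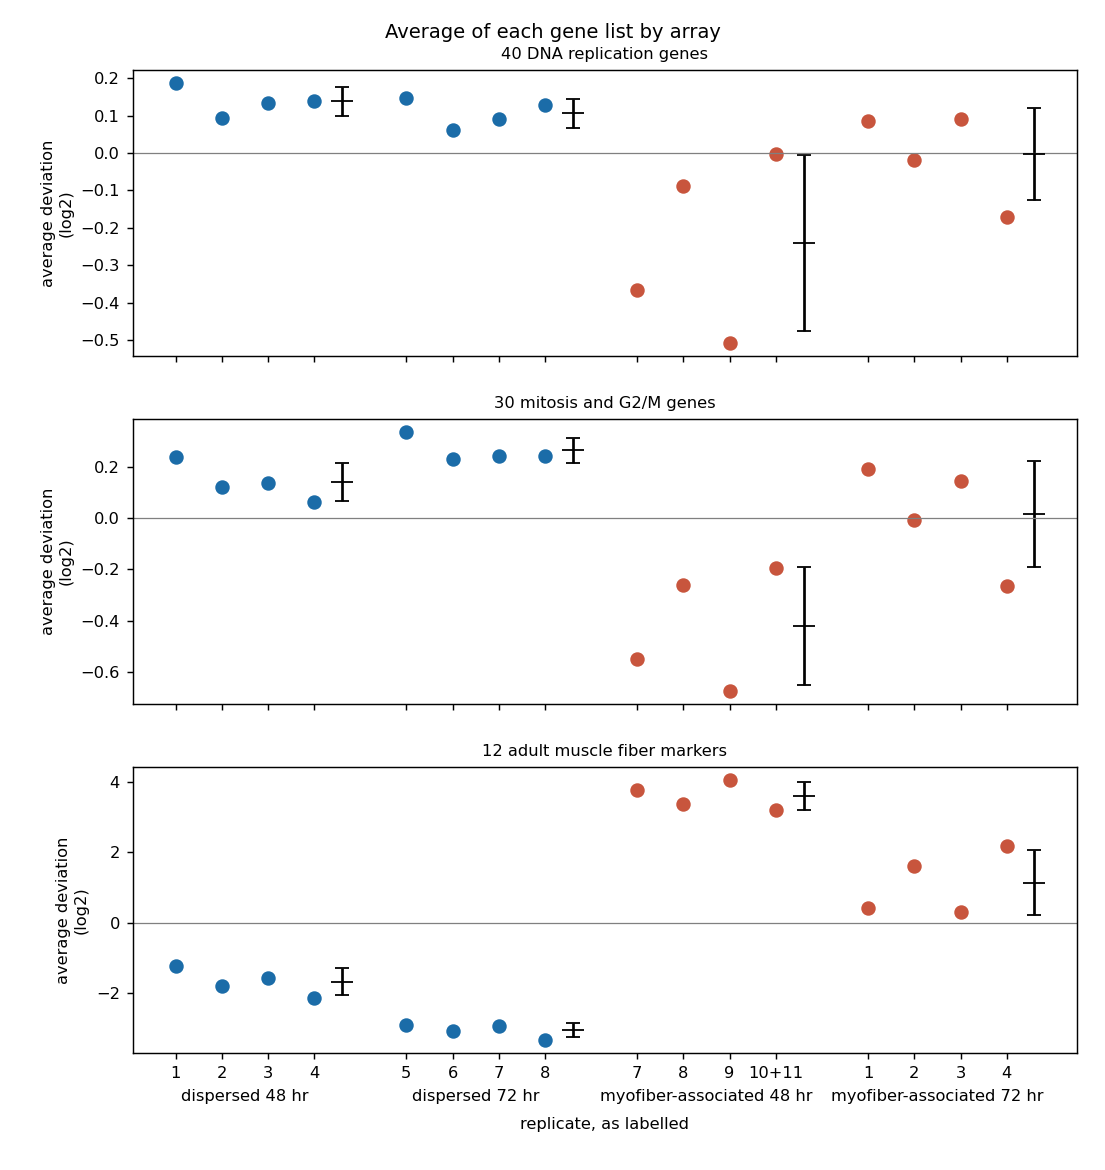
Average deviation from the 16-array mean (log2, y axis) of the 40 replication genes, 30 mitosis and G2/M genes and 12 adult muscle fiber markers on each array (x axis). Points are arrays, blue for dispersed and red for myofiber-associated, and black bars give the group mean and SD (n = 4). Myofiber-associated arrays with more fiber marker signal, such as replicates 7 and 9 at 48 hr and 2 and 4 at 72 hr, are those with less replication gene signal.

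The change from 48 to 72 hr in dispersed myoblasts was small for nearly all members. Mcm5, a subunit of the MCM helicase, fell, and it was the only member past the threshold (limma adjusted p under 0.01). Its log2 signals were 14.46, 14.31, 14.30 and 14.22 at 48 hr and 14.04, 13.95, 13.98 and 13.97 at 72 hr, so that the 2 groups did not overlap. The change was -0.34 ± 0.057 (SE, n = 4 against 4, 0.792-fold, limma adjusted p = 0.00395). Among all genes tested 6.35% were called lower and 7.37% higher, so 1 of 40 lower and 0 of 40 higher are below the background. At an unadjusted limma p under 0.05, 7 members were lower (17.5%) and 0 higher, beside 16.9% and 21.7% of all genes. Without dispersed 48-hr replicate 2 or 3, or 72-hr replicate 6 or 7, the call on Mcm5 was lost (limma adjusted p = 0.0121 to 0.0143). With all 16 arrays in 1 fit it was lost as well (limma adjusted p = 0.0606), as it was with scaling to the 75th percentile (limma adjusted p = 0.0145). Without dispersed 72-hr replicate 8, 2 members were called lower, beside 5.51% of all genes.

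The other MCM subunits lay on both sides of 0 in dispersed myoblasts. Mcm7 stood at -0.18, Mcm3 at -0.17, Mcm2 at -0.10, Mcm6 at -0.09 and Mcm4 at 0.05 on the log2 scale, none of them past the threshold. Rfc4, a subunit of the clamp loader, had a difference of -0.21 (95% interval -0.33 to -0.09), and Rpa2, which binds single-stranded DNA, of -0.16 (-0.28 to -0.04). All 5 nucleotide supply genes were above 0, from 0.05 for Dut to 0.13 for Tyms, and none was called. The median over the 40 members was -0.01 against 0.02 for all genes, with 18 above and 22 below 0. Scaled to the 75th percentile instead, the members' median was 0.05 with 26 above 0, so neither side of 0 holds under both scalings. Without 48-hr replicate 1 the median was 0.006. The bound of the members' 95% intervals farthest from 0 was 0.48 (Pola1), and the median SE was 0.057.

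In myofiber-associated myoblasts 38 of the 40 members were above 0 from 48 to 72 hr, and no member passed the threshold. All genes tested were called higher in 3.74% and lower in 1.75% of cases, and 57.0% of them were above 0. At an unadjusted limma p under 0.05, 9 of the 40 members were higher (22.5%), near the 23.8% of all genes. By the same p 0 members were lower, beside 17.7% of all genes. The members' median was 0.25 on the log2 scale against 0.06 for all genes, and without 48-hr replicate 9 it was 0.16. In only 4 members (10%) did all 72-hr arrays exceed all 48-hr arrays, compared with 15.9% of all genes. In 0 members were all 72-hr arrays below all 48-hr arrays, beside 10.4% of all genes. The median SE was 0.144 and the outermost 95% bound 0.89 (Pole), so a rise of that size lay within the interval of at least 1 member that was not called.

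Nucleotide supply genes were among the members farthest above 0. Tk1, thymidine kinase, differed by 0.43 (95% interval 0.03 to 0.83), Rrm1, the large subunit of ribonucleotide reductase, by 0.42 (0.10 to 0.73), and Dut, which removes dUTP, by 0.41 (0.09 to 0.74). Rrm2 had the smallest limma adjusted p of the members in this comparison, 0.0368, with a difference of 0.33 (1.26-fold). Pole, the catalytic subunit of polymerase epsilon, differed by 0.44, Rfc3 by 0.42 and Lig1 by 0.40, none past the threshold. The MCM genes ranged from 0.01 for Mcm3 to 0.29 for Mcm7. Pold2 and Rpa2 were the members below 0, at -0.06 and -0.08.

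**Figure D4:**
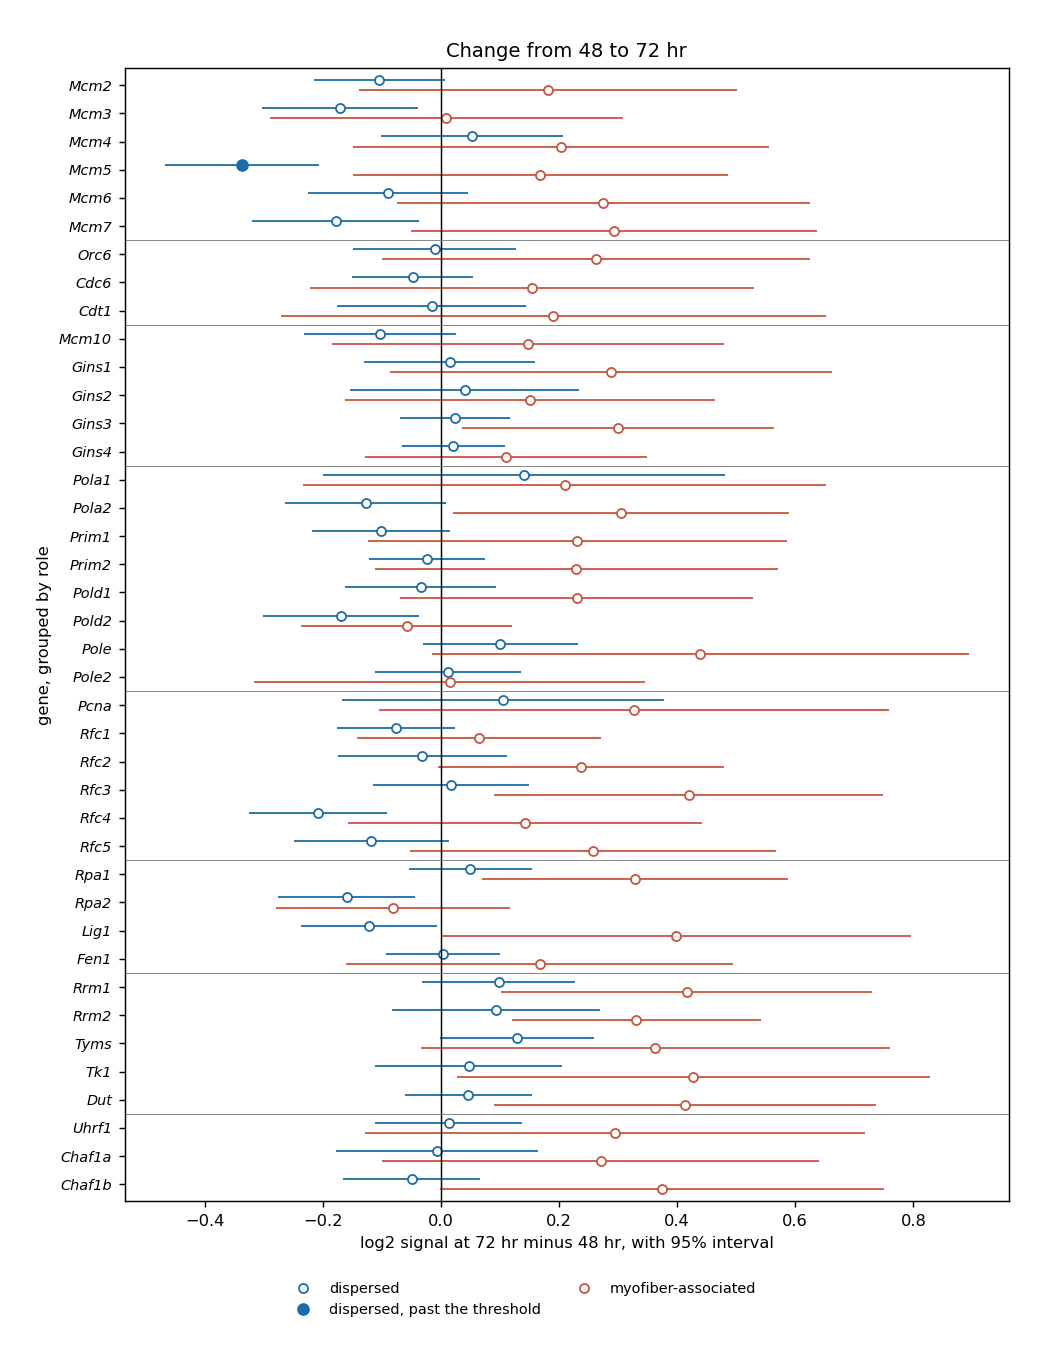
Change in log2 signal from 48 to 72 hr (x axis, with 95% intervals) of each of the 40 members (y axis, grouped by role) in dispersed (blue) and myofiber-associated (red) myoblasts. Filled points passed a limma adjusted p of 0.01, which holds for Mcm5 in dispersed myoblasts alone, and red points are to the right of 0 in 38 of 40 rows.

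The difference between these changes, dispersed minus myofiber-associated, was below 0 for all 40 members, with a median of -0.27, and with scaling to the 75th percentile 1 member was above 0. Of the 16 arrays left out in turn, 9 left 1 to 3 members above 0, the most without myofiber-associated 48-hr replicate 9, where the median was -0.18. Among all genes tested 57.0% were below 0 and the median was -0.07. No member passed the threshold, against 1.08% of all genes called higher and 2.37% called lower. At an unadjusted limma p under 0.05, 14 members (35%) were below 0 and 0 above, beside 19.5% and 14.8% of all genes. The members do not vary independently, so the count of 40 is a description. Mcm5 differed by -0.51 ± 0.15 (SE, limma adjusted p = 0.0381) and Pola2, a subunit of polymerase alpha, by -0.43 ± 0.14 (limma adjusted p = 0.046). Lig1 had a difference of -0.52 (95% interval -0.92 to -0.12), and Pole2, an accessory subunit of polymerase epsilon, was at -0.002 (-0.34 to 0.33). Without the pooled 48-hr array 4 members were called lower, beside 6.64% of all genes.

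At 48 hr most replication genes had a lower mean signal in myofiber-associated than in dispersed myoblasts. Of the 40 members 36 were below 0, and 8 of them (20%) passed the threshold, whereas 27.0% of all genes were called lower and 16.1% higher. No member was called higher, and at an unadjusted limma p under 0.05, 29 were lower (72.5%) and 0 higher, beside 39.9% and 24.3% of all genes. The share past the adjusted threshold was thus below the background, and the share at the unadjusted p was above it. The median difference was -0.41 against -0.12 for all genes, the latter a shift that the changes are to be read against. In 22 members (55%) the arrays of the cultures did not overlap with the myofiber-associated arrays lower, compared with 35.3% of all genes. With the myofiber-associated arrays higher this held for 0 members, beside 20.7% of all genes. The count depended on the pooled array, since without it 23 members were called lower beside 33.5% of all genes. Without dispersed replicate 1 or 4 or myofiber-associated replicate 7 it was 5 in each case, and the all-gene shares of those runs are not given here. The average of the adult muscle fiber markers was 3.60 ± 0.39 (SD, n = 4) in the myofiber-associated and -1.68 ± 0.38 in the dispersed 48-hr arrays, and its part in the members' difference was not tested.

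The members called lower at 48 hr were Orc6, Gins2, Gins3, Pola2, Prim2, Pole2, Rfc5 and Rrm1. Pola2 had log2 signals of 9.34, 9.18, 9.27 and 9.31 in dispersed myoblasts at 48 hr and 9.21, 9.09, 9.23 and 9.05 at 72 hr. In myofiber-associated myoblasts its log2 signals were 8.20, 8.52, 8.13 and 8.54 at 48 hr and 8.62, 8.72, 8.76 and 8.51 at 72 hr. All 8 dispersed arrays were above all 8 myofiber-associated arrays. The 48-hr difference was -0.93 ± 0.11 (SE, 0.526-fold, limma adjusted p = 2.44e-04), the largest of the members. Prim2, the large subunit of the primase that works with polymerase alpha, had log2 signals of 12.04, 11.93, 11.99 and 11.99 in dispersed myoblasts at 48 hr and 12.01, 11.92, 11.99 and 11.93 at 72 hr. In myofiber-associated myoblasts they were 11.20, 11.56, 11.18 and 11.62 and 11.75, 11.60, 11.78 and 11.33. The groups were separate at both time points, and replicates 7 and 9 were the lowest at 48 hr. Its 48-hr difference was -0.60 ± 0.12 (limma adjusted p = 0.0025). A dimmer probe for Prim2 differed the other way, by 0.26 at 48 hr and 0.86 at 72 hr, and with the mean of its probes the difference was -0.17 (limma adjusted p = 0.464).

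Pole2 and Gins2 were called lower in myofiber-associated myoblasts at both time points. Pole2 had log2 signals of 11.28, 11.34, 11.37 and 11.31 in dispersed myoblasts at 48 hr and 11.43, 11.32, 11.22 and 11.37 at 72 hr. In myofiber-associated myoblasts its log2 signals were 10.65, 10.77, 10.49 and 10.87 at 48 hr and 10.77, 10.84, 10.88 and 10.34 at 72 hr. The cultures did not overlap at either time, and myofiber-associated replicate 4 was the lowest array. The difference was -0.63 ± 0.092 at 48 hr (limma adjusted p = 6.18e-04) and -0.63 ± 0.12 at 72 hr (limma adjusted p = 0.0047). Gins2 is a subunit of the GINS complex that completes the active helicase. Gins2 had log2 signals of 11.80, 11.69, 11.67 and 11.61 in dispersed myoblasts at 48 hr and 11.92, 11.80, 11.67 and 11.55 at 72 hr. In myofiber-associated myoblasts its log2 signals were 10.99, 11.20, 10.67 and 11.23 at 48 hr and 11.24, 11.19, 11.23 and 11.03 at 72 hr. Here too every dispersed array was above every myofiber-associated array. The difference was -0.67 ± 0.13 at 48 hr (limma adjusted p = 0.0024) and -0.56 ± 0.10 at 72 hr (limma adjusted p = 0.00235). Without dispersed 72-hr replicate 6 the Gins2 call at 72 hr was lost (limma adjusted p = 0.0101). The Pole2 call at 72 hr was lost without any 1 of the dispersed 72-hr arrays or myofiber-associated replicate 1 (limma adjusted p = 0.0107 to 0.0169).

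Gins3, another GINS subunit, had log2 signals of 15.14, 15.06, 15.05 and 15.04 in dispersed myoblasts at 48 hr and 15.08, 15.13, 15.10 and 15.06 at 72 hr. In myofiber-associated myoblasts they were 14.55, 14.70, 14.35 and 14.82 and 15.01, 14.85, 14.91 and 14.86. Each culture kept to its own range, and the 48-hr difference was -0.46 ± 0.11 (SE, limma adjusted p = 0.0057). Of the 8 calls it was lost most often when arrays were left out in turn. That held without myofiber-associated replicate 7 or any 1 dispersed 48-hr array (limma adjusted p = 0.0153 to 0.0188). Orc6, the smallest subunit of the origin recognition complex, had log2 signals of 13.99, 13.87, 13.86 and 13.92 in dispersed myoblasts at 48 hr and 14.04, 13.90, 13.85 and 13.81 at 72 hr. Its myofiber-associated signals were 13.03, 13.47, 12.94 and 13.48 and 13.64, 13.49, 13.59 and 13.25. At 48 hr the cultures were separate and replicates 7 and 9 were lowest, with a difference of -0.68 ± 0.14 (limma adjusted p = 0.00307). Without myofiber-associated replicate 7 or dispersed replicate 1 or 4 the limma adjusted p was 0.0102 to 0.0109.

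Rrm1 gave log2 signals of 14.52, 14.40, 14.35 and 14.31 in dispersed myoblasts at 48 hr and 14.54, 14.53, 14.47 and 14.43 at 72 hr. Its myofiber-associated signals were 13.61, 13.92, 13.53 and 13.93 and 14.29, 14.06, 14.35 and 13.95. The cultures were separate at 48 hr, where the difference was -0.65 ± 0.11 (SE, 0.639-fold, limma adjusted p = 0.00145). Rfc5, a clamp loader subunit, had log2 signals of 13.87, 13.71, 13.88 and 13.90 in dispersed myoblasts at 48 hr and 13.72, 13.63, 13.74 and 13.78 at 72 hr. Its myofiber-associated signals were 13.14, 13.47, 13.01 and 13.43 and 13.54, 13.58, 13.66 and 13.29. The 48-hr arrays did not overlap, with a difference of -0.58 ± 0.12 (SE, limma adjusted p = 0.00319). Without myofiber-associated replicate 7 or dispersed replicate 1, 3 or 4 the limma adjusted p was 0.0109 to 0.0118. With the slide row as a block, the 48-hr calls on Orc6, Gins3, Prim2 and Rfc5 were lost (limma adjusted p = 0.0114 to 0.0201).

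Rfc2, of the clamp loader, and Prim1, the catalytic subunit of primase, came closest to the threshold at 48 hr without passing it. Rfc2 had log2 signals of 12.74, 12.50, 12.51 and 12.55 in dispersed myoblasts at 48 hr and 12.60, 12.51, 12.58 and 12.49 at 72 hr, and of 12.13, 12.24, 11.96 and 12.37 and 12.45, 12.38, 12.48 and 12.33 in myofiber-associated myoblasts. Prim1 had log2 signals of 13.86, 13.70, 13.84 and 13.91 in dispersed myoblasts at 48 hr and 13.74, 13.71, 13.70 and 13.75 at 72 hr, and of 13.13, 13.40, 12.95 and 13.64 and 13.50, 13.60, 13.59 and 13.35 in myofiber-associated myoblasts. The 48-hr arrays of the cultures were separate for both genes. Rfc2 differed by -0.40 (95% interval -0.64 to -0.16, limma adjusted p = 0.0106) and Prim1 by -0.55 (-0.88 to -0.21, limma adjusted p = 0.0121). The 6 MCM genes were all below 0, from -0.30 for Mcm7 to -0.50 for Mcm5, and none was called. Cdt1, Pold2, Rpa2 and Rrm2 were the members above 0, at 0.02, 0.06, 0.10 and 0.15.

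**Figure D5:**
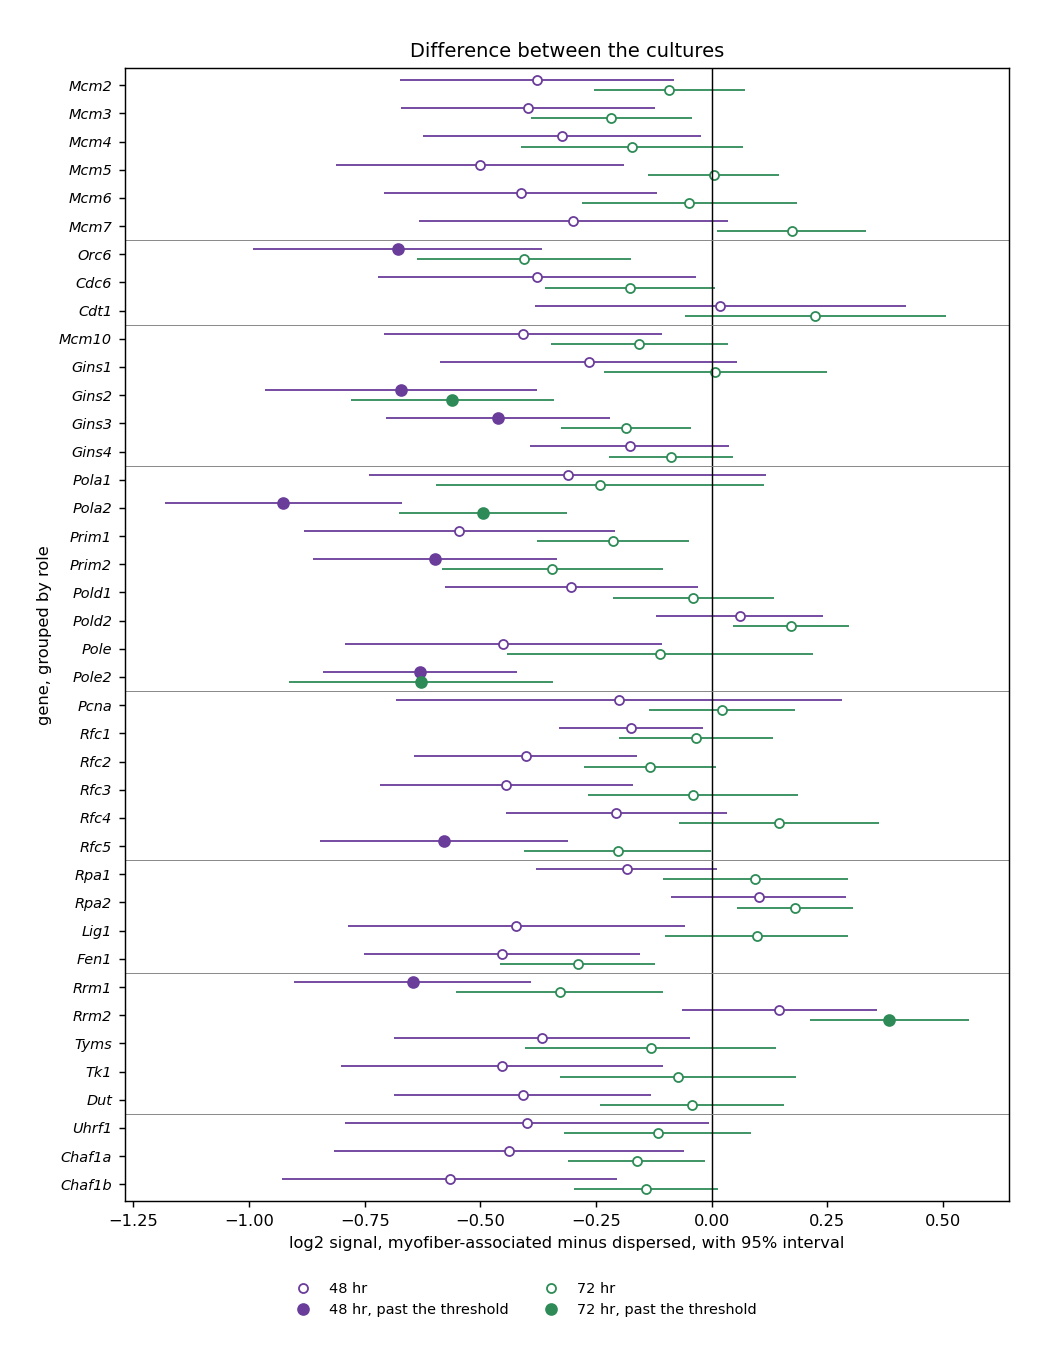
Log2 signal of myofiber-associated minus dispersed myoblasts (x axis, with 95% intervals) for each of the 40 members (y axis, grouped by role) at 48 hr (purple) and 72 hr (green). Filled points passed a limma adjusted p of 0.01, 8 lower at 48 hr, and 3 lower and 1 higher at 72 hr. Nearly all purple points lie left of 0, and the green ones are nearer to it.

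At 72 hr the cultures were closer. Of the 40 members 29 were below 0, with a median of -0.11 against -0.02 for all genes. Without myofiber-associated replicate 4 the median was -0.06 and 17 members, in place of 11, were above 0. Gins2, Pola2 and Pole2 were called lower (3 of 40, 7.5%), beside 15.6% of all genes. Rrm2 alone was called higher (2.5%), beside 11.5% of all genes. Without dispersed 72-hr replicate 6, 1 member was called lower, beside 9.76% of all genes. At an unadjusted limma p under 0.05, 12 members were lower (30%) and 4 higher (10%), beside 29.1% and 24.8% of all genes. Pola2 differed by -0.49 ± 0.079 (SE, 0.71-fold, limma adjusted p = 0.00178), and its call held without each array in turn. Arrays did not overlap in 14 members with myofiber-associated myoblasts lower (35%, all genes 26.1%) and in 4 with them higher (10%, all genes 20.4%).

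Rrm2 departed from most other members. Pold2 and Rpa2, also above 0 at 48 hr, were at 0.17 and 0.18 at 72 hr. Their arrays did not overlap at 72 hr, and neither gene passed the threshold. Rrm2 had log2 signals of 16.01, 15.73, 15.98 and 15.98 in dispersed myoblasts at 48 hr and 16.02, 15.96, 15.94 and 16.15 at 72 hr. In myofiber-associated myoblasts its log2 signals were 15.93, 16.06, 16.19 and 16.10 at 48 hr and 16.35, 16.40, 16.33 and 16.52 at 72 hr. All 4 myofiber-associated 72-hr arrays were above all other arrays, and dispersed 48-hr replicate 2 was the lowest. The 72-hr difference between the cultures was 0.38 ± 0.074 (SE, 1.3-fold, limma adjusted p = 0.00429). The call was lost without myofiber-associated replicate 2 or dispersed replicate 5, 6 or 7 (limma adjusted p = 0.0125 to 0.0175), and with the slide row as a block (limma adjusted p = 0.0159). Rrm1, its partner in the same enzyme, was at -0.33 at 72 hr (95% interval -0.55 to -0.11). On myofiber-associated 72-hr replicate 4, where the average of the members was lowest in its group, Rrm2 had the highest signal of the 16 arrays.

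Mcm5 did not differ detectably between the cultures at 72 hr. Its myofiber-associated log2 signals were 13.65, 14.04, 13.52 and 14.06 at 48 hr and 14.06, 13.99, 14.00 and 13.89 at 72 hr, against the dispersed signals given above. The 72-hr arrays overlapped, with a difference of 0.00 (95% interval -0.14 to 0.14), while at 48 hr it was -0.50 (-0.81 to -0.19, limma adjusted p = 0.0127). Cdt1, which brings the MCM complex to origins, was at 0.22 (-0.06 to 0.51) and Mcm7 at 0.17 (0.01 to 0.33) at 72 hr, neither past the threshold. Pcna, the sliding clamp, differed by -0.20 at 48 hr (-0.68 to 0.28) and 0.02 at 72 hr (-0.14 to 0.18). Uhrf1, which guides maintenance of DNA methylation behind the fork, was at -0.40 and -0.12, and the chromatin assembly factor genes Chaf1a and Chaf1b were at -0.44 and -0.57 at 48 hr and -0.16 and -0.14 at 72 hr, none past the threshold.

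A further 48 replication genes, not among the members, were described for comparison. From 48 to 72 hr 24 of them were above 0 in dispersed myoblasts and 39 in myofiber-associated myoblasts, with medians of -0.001 and 0.27. In dispersed myoblasts Timeless, of the fork protection complex, fell (-0.38 ± 0.057, limma adjusted p = 0.00239) and Orc4, of the origin recognition complex, rose (0.28 ± 0.054, limma adjusted p = 0.00709). In myofiber-associated myoblasts 0 were called by limma, beside 3.74% of all genes called higher and 1.75% lower. At an unadjusted limma p under 0.05, 18 were higher (37.5%) and 3 lower (6.25%), beside 23.8% and 17.7% of all genes. At 48 hr 15 of the 48 (31.3%) were lower in myofiber-associated myoblasts, near the 27.0% of all genes called lower. The largest differences were those of Dna2, a nuclease and helicase of Okazaki fragments (-0.89 ± 0.071, limma adjusted p = 3.20e-05), Orc4 (-0.82 ± 0.094, limma adjusted p = 1.96e-04) and the histone chaperone gene Asf1b (-0.71 ± 0.10, limma adjusted p = 4.53e-04). At 72 hr 5 (10.4%) were lower and 1 (2.08%) higher, beside 15.6% and 11.5% of all genes. Orc1, the largest subunit of the origin recognition complex, was lower (-0.78 ± 0.15, limma adjusted p = 0.00382), as was Slbp, which binds histone mRNA (-0.58 ± 0.08, limma adjusted p = 8.70e-04). Wdhd1, which couples polymerase alpha to the helicase, was higher (0.49 ± 0.11, limma adjusted p = 0.0073).

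Of 30 E2F and G1/S regulators, 5 (16.7%) rose in dispersed and 4 (13.3%) in myofiber-associated myoblasts from 48 to 72 hr. Among all genes 7.37% and 3.74% were called higher. By limma 0 of the 30 fell, beside 6.35% and 1.75% of all genes. At an unadjusted limma p under 0.05, 1 and 3 were lower (3.33% and 10%), beside 16.9% and 17.7% of all genes. The largest rises in both cultures were those of Cdkn2a and Cdkn2b, inhibitors of the G1 cyclin-dependent kinases, and Ccnd3, a G1 cyclin. Cdkn2a rose by 1.11 ± 0.15 in dispersed (SE, limma adjusted p = 0.00167) and 2.79 ± 0.25 in myofiber-associated myoblasts (limma adjusted p = 8.66e-04). Cdkn2b rose by 0.85 ± 0.083 and 2.18 ± 0.22 (limma adjusted p = 2.98e-04 and 0.00125), and Ccnd3 by 0.51 ± 0.065 and 1.71 ± 0.18 (limma adjusted p = 0.00106 and 0.00141). For all 3 the difference between the cultures passed the threshold, at -1.68, -1.33 and -1.20 (limma adjusted p = 0.00471, 0.00533 and 0.00283). At 48 hr 17 of the 30 regulators (56.7%) were lower in myofiber-associated myoblasts and 2 (6.67%) higher, beside 27.0% and 16.1% of all genes. E2f4, a repressor E2F, was higher (1.58 ± 0.19, limma adjusted p = 2.59e-04). Its myofiber-associated 48-hr signal was highest on replicate 9 (11.38) and lowest on the pool (10.34), as the fiber marker average was. At 72 hr its signals of 9.72, 10.59, 9.47 and 10.98 were in the order of that average. The part of fiber RNA in E2f4 was not tested. Ccnd2 (-1.41 ± 0.27, limma adjusted p = 0.00226) and Ccne2 (-1.26 ± 0.17, limma adjusted p = 3.98e-04), cyclins of G1 and of S phase entry, were lower. At 72 hr 8 (26.7%) were lower and 1 (3.33%) higher, beside 15.6% and 11.5% of all genes. Ccnd2 was at -1.83, Ccne2 at -1.48 and the inhibitor Cdkn1c at -1.17 (limma adjusted p = 0.00105, 0.0018 and 1.67e-04).

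The 30 mitosis and G2/M genes give a measure of the rest of the division program. From 48 to 72 hr all 30 were above 0 in myofiber-associated myoblasts with a median of 0.42, and 28 in dispersed myoblasts with a median of 0.10. Only Nuf2, a kinetochore component, was called higher, in myofiber-associated myoblasts (0.77 on the log2 scale, limma adjusted p = 0.00895). That is 3.33% of the list, beside 3.74% of all genes. At 48 hr all 30 were below 0 in myofiber-associated relative to dispersed myoblasts, with a median of -0.56. Of these 19 (63.3%) were called lower, beside 27.0% of all genes. At 72 hr 25 were below 0 with a median of -0.23, and 4 (13.3%) were called lower, beside 15.6% of all genes. The replication genes, with medians of -0.41 and -0.11, were on the same side of 0 at both times.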

How the data were processed

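RNA of 16 samples was hybridized to single-colour Agilent mouse arrays, 4 per group. Per the file headers, Agilent Feature Extraction made the deposited processed intensities by background subtraction and detrending of each spot, in linear units. The authors also deposited a table of normalized log2 values, which served as an alternative. Here log2 of the processed intensity was taken, spots marked as outliers were left out, and a loess curve (span 0.3, 4 iterations) set each array against the averaged 48-hr arrays from that culture before quantile normalization. A gene was read by its brightest probe, and the 20317 genes whose median log2 signal reached 5 were tested. The methods of the study name SAM, and limma 3.58.1 in R 4.3.3 was used in its place, on the arrays of each comparison, with Benjamini-Hochberg adjustment and a threshold of 0.01. For a single value, an exact permutation of 4 against 4 arrays cannot go below a two-sided p of 0.0286. Precision is limited by the number of arrays, since spots carry no read depth. The labels number the preparations of a group separately, and p-values measure the spread between these arrays.

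The members and the gene lists were chosen with earlier results of these data known. Values by array are given for the 10 members past the threshold in any comparison and, to make 12, for those with the next smallest adjusted p. From the other replication genes and the G1/S regulators, up to 3 genes per list and comparison with the largest difference past the threshold are named. The additional lists were other replication genes (49, of which 48 were tested), E2F and G1/S regulators (30), mitosis and G2/M genes (30) and cell type markers. The fit was tested on simulated data. A first version of that simulation, with the spread of each gene in each group taken from its own 4 arrays, gave more false calls between the cultures than was allowed for, and the simulation was then changed to a spread pooled over groups and scaled to each group. In the changed version false calls between cultures were fewer but still above the nominal threshold, so the counts between cultures, whose spread differs, may hold a few more false calls than the threshold implies. For promoters, the rule that overlapping matches count once was chosen after the matches had been seen.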

Additional observations from a re-analysis of the deposited data

Results flagged for a closer look

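Of 164 groups of 4 arrays looked at, the members' averages among them, 6 held an array far from the other 3, where chance flags about 1 in 20 groups (8.2 here). For each, the ratio is the gap of the outermost array to its nearest neighbour over the whole range. Pold1 on dispersed 48-hr replicate 1 was at 13.75 on the log2 scale against 13.57 to 13.59 on the others (ratio 0.871). Pcna on myofiber-associated 72-hr replicate 4 was at 15.44 against 15.61 to 15.62 (ratio 0.913), and Rfc4 on the same array at 13.13 against 13.45 to 13.47 (ratio 0.952). Rfc3 on dispersed 72-hr replicate 8 was at 10.43 against 10.61 to 10.62 (ratio 0.921). Rfc5 on dispersed 48-hr replicate 2 was at 13.71 against 13.87 to 13.90 (ratio 0.860), and Rrm2 on that array at 15.73 against 15.98 to 16.01 (ratio 0.898). No array stood out in this way for the average of the 40 members, and no member passed the threshold for a difference between the cultures in its change over time.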

How the results depend on the processing

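No direction of a called member reversed under any alternative run. In dispersed myoblasts, scaling to the 75th percentile gave 0 members lower and a median of 0.052, the mean of all probes gave 2 lower, 1 fit of all 16 arrays gave 0 lower, and an adjusted p of 0.05 gave 3 lower (11.9% of all genes). In myofiber-associated myoblasts 1 fit of all 16 arrays called 5 members higher (16.7% of all genes) and an adjusted p of 0.05 called 1 (13.5%). For the difference between the changes an adjusted p of 0.05 called 2 lower (9.14%). At 48 hr 1 fit of 16 arrays called 21 lower (32.5%), the slide row as a block 4 (19.9%) and an adjusted p of 0.05 called 24 (37.1%). At 72 hr the slide row as a block called 0 higher, and an adjusted p of 0.05 called 3 higher (20.8%) and 10 lower (25.0%). Why these counts moved was not tested, beyond the wider threshold itself. A count given without the share of all genes is no result about the members.

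Leaving out each array in turn, with normalized values and tested genes held as they were, the members called lower ranged from 0 to 2 in dispersed myoblasts, 0 to 4 for the difference, 5 to 23 at 48 hr and 1 to 4 at 72 hr, and those higher at 72 hr from 0 to 1. The share of all genes called moved with the array left out too, so these ranges are not about the members alone. The members' median change in myofiber-associated myoblasts ranged from 0.16 to 0.33. Pola2, Prim2, Pole2, Rrm1 and Gins2 at 48 hr passed the threshold without each of the 8 arrays. Gins3 at 48 hr missed it with normexp background correction and Pole2 at 72 hr with the slide row as a block, and both with no filter on low signal (limma adjusted p = 0.0103 to 0.0135). The all-gene median at 48 hr was -0.12 as reported, -0.02 with normexp and -0.07 with scaling to the 75th percentile. No paired analysis was possible because the groups compared share no replicate number.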
